A study of Mus musculus with 17 samples.

Results

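The genes described here mark the mural cells of blood vessels, the pericytes of capillaries and the smooth muscle cells of arterioles. The 9 genes are Pdgfrb, Notch3, Rgs5, Abcc9, Anpep, Acta2, Vtn, Tbx18 and Foxc1, out of 21887 protein-coding genes of the mouse RefSeq annotation. For each gene, every peak of the deposited H3K27ac list that overlapped the gene span or the 20 kb on either side of it was taken, by 1 bp or more. This gave 54 distinct peaks of 183678.

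H3K27ac, acetylation of lysine 27 of histone H3, marks active promoters and enhancers, and was mapped in nuclei of mouse hypothalamus by CUT&Tag, in which an antibody directs the Tn5 transposase to marked chromatin. Of 17 samples, 3 were bulk CUT&Tag replicates, and 14 were single-nucleus Paired-Tag sub-libraries, 7 of DNA and 7 of RNA, which are not analysed here. No sample carried a label of strain, genotype, treatment or age, so all are described as hypothalamus only. The 3 bulk replicates share 1 peak list, which gives no spread between animals, no read depth and no test between samples for any value below. Fold enrichment and −log10 q, the significance of a peak after correction, are the authors' peak caller's values for each peak.

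Pericytes lie on the capillary wall inside the basement membrane that they share with endothelial cells, and smooth muscle cells wrap arterioles and set their diameter. Endothelial cells release PDGF-B, which recruits mural cells through the receptor encoded by Pdgfrb, and Jagged and Delta ligands maintain arteriolar smooth muscle through Notch3. Brain pericytes also carry an ATP-sensitive potassium channel built from the products of Kcnj8 and Abcc9. Tissue was profiled in bulk, so a strong mark in few cells and a weak mark in many cells cannot be told apart, and no peak can be assigned to a cell type from the list. The genes are known markers of mural cells, but Foxc1 and Anpep, for example, are also expressed by meningeal and other cells.

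H3K27ac was found near 8 of the 9 genes, but 7 of the 10 peaks with a fold of 5 or more were closer to another annotated gene. The cut of 5 was chosen after the values were seen. No share of such peaks nearer to another gene is given over all protein-coding genes, so the count describes these 10 peaks only. A peak lay in the window, the span with 20 kb on either side, at 8 genes, against 81.5% of all protein-coding genes. Inside the gene span a peak was present at 6 of 9 genes, against 74.3% of protein-coding genes. Within 1 kb of an end of the span a peak was present at 5 of 9, against 69.2%. With 9 genes these shares lie near those of genes at large. Tbx18 was the gene with no peak in its window.

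**Figure D1:**
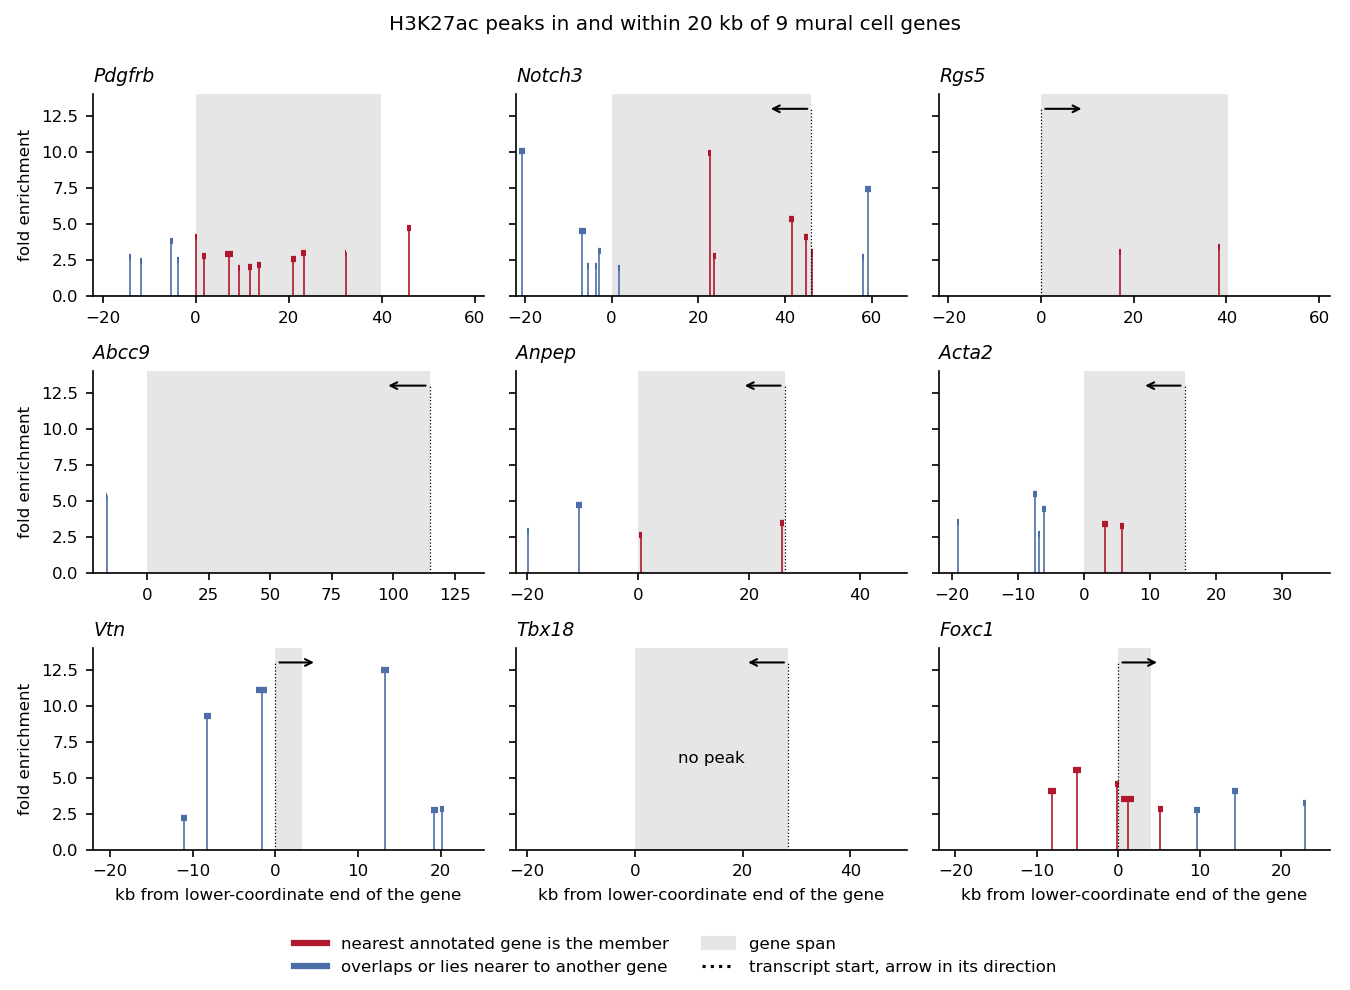
Peaks of the 9 mural cell genes, each panel running from 20 kb below to 20 kb above the gene. The x axis is the distance in kb from the lower-coordinate end of the gene, the y axis is the peak caller's fold enrichment, each stem is capped by a bar as wide as the peak, grey is the gene span, the dotted line and arrow give the transcript start where known, and red peaks have the member as nearest annotated gene while blue peaks overlap or lie nearer to another gene. All 6 peaks of the Vtn window and the single peak of the Abcc9 window are blue, and the 9 peaks inside Pdgfrb are red.

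The promoter sequences are shown because the peaks at promoters went with CpG content at most of these genes. RefSeq promoters of build GRCm38.p6, from 250 bases before to 50 after a transcript start, were matched by symbol for 8 of the 9 genes. The first 3 sequences below were touched by a peak, and the other 3 were not. Capitals mark the GC box GGGCGG, on either strand, and CArG boxes, the site of serum response factor, in a form with 1 G or C allowed among the 6 middle bases. The promoters of Abcc9 and Vtn, also without a peak, are not shown. That of Abcc9 holds a GC box, so GC boxes do not separate promoters with and without a peak.
Foxc1, GRCm38.p6 chr13:31806396-31806695, plus strand: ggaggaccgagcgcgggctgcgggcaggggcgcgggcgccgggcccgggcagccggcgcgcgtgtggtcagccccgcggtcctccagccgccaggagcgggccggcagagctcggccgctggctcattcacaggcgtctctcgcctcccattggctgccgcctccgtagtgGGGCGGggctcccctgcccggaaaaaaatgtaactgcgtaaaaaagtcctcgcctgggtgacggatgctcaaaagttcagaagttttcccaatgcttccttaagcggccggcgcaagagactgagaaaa
Notch3, GRCm38.p6 chr17:32166841-32167140, minus strand: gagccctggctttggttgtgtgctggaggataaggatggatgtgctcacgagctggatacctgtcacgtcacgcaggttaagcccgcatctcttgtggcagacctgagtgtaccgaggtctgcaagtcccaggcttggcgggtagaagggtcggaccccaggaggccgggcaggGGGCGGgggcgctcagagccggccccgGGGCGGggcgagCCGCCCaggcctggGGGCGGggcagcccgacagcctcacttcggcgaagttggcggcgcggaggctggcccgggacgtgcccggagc
Anpep, GRCm38.p6 chr7:79848161-79848460, minus strand: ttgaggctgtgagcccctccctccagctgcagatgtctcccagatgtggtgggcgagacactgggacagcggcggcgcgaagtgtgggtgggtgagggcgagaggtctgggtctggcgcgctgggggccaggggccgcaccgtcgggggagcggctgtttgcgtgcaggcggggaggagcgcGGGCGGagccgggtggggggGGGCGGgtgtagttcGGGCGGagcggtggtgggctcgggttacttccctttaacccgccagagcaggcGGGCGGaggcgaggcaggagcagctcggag
Tbx18, GRCm38.p6 chr9:87731211-87731510, minus strand: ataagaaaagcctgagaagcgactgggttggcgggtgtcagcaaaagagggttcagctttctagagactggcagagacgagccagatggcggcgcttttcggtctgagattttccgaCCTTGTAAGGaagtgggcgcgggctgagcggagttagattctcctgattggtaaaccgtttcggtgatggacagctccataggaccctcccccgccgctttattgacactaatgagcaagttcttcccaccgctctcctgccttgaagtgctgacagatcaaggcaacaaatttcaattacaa
Acta2, GRCm38.p6 chr19:34255324-34255623, minus strand: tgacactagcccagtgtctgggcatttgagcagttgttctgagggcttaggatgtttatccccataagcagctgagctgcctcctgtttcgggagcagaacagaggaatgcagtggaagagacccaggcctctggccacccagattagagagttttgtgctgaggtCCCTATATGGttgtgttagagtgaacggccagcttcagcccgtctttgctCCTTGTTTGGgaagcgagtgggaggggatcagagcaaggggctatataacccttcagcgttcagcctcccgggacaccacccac
Rgs5, GRCm38.p6 chr1:169655251-169655550, plus strand: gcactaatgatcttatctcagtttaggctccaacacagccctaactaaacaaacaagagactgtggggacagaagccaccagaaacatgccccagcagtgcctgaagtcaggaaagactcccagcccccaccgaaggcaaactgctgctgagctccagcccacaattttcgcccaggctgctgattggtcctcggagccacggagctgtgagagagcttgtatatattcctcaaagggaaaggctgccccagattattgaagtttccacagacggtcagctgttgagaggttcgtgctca

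Peaks overlapped the promoters of 3 of the 8 genes, against 65.4% of the 17492 protein-coding genes of the promoter table, which holds none of chromosome 18. The peak at the Foxc1 promoter covered 290 of its 300 bases, and the peak at the Notch3 promoter covered all 300. The Anpep peak reached its promoter by 1 base, at the downstream edge, and had its summit 166 bp downstream of the transcript start. With 1 kb on either side of the start the count became 4 of 8, against 68.3%, through a peak at Vtn that lies on Sarm1.

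The 3 promoters with a peak were rich in CpG. The ratio of observed to expected CpG dinucleotides was 0.943 at Foxc1, 0.81 at Anpep and 0.706 at Notch3. It was 0.27 at Acta2, 0.294 at Rgs5, 0.45 at Vtn and 0.519 at Abcc9, none of which had a peak on the promoter. Tbx18, with a ratio of 0.755, was the CpG-rich promoter without a peak. Over all promoters of protein-coding genes a peak was present on 95.1% of the 10137 with a ratio of 0.6 or more, and on 38.0% of the 11126 with a lower ratio. The 3 promoters overlapped by a peak, that of Anpep by 1 base only, therefore fell in the class that carries peaks at nearly every gene. Tbx18 fell outside the common pattern of its class.

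**Figure D2:**
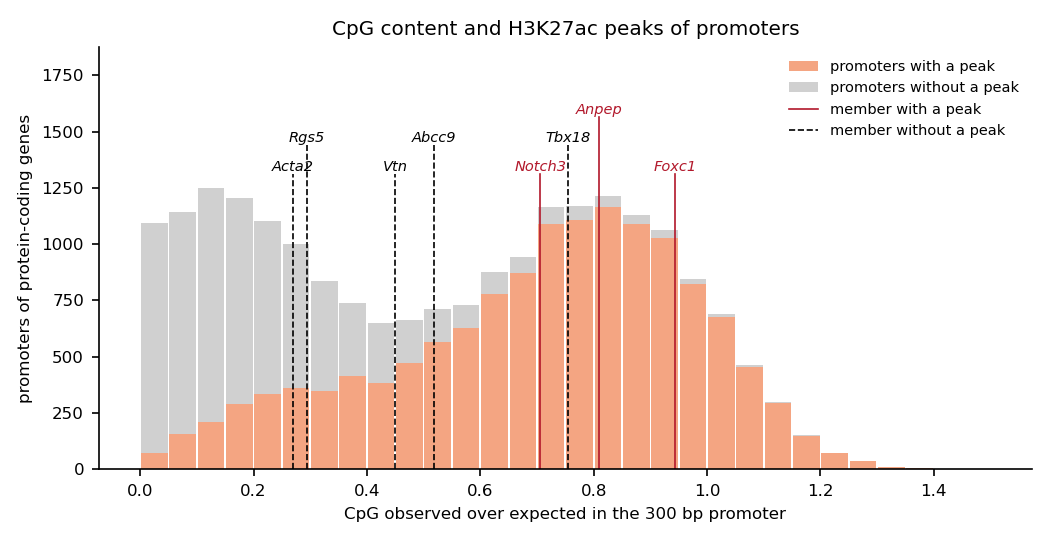
Observed over expected CpG ratio of 300 bp promoters of protein-coding genes (x axis) against their number (y axis), stacked as promoters with a peak in orange and without a peak in grey. Solid red lines mark the 3 members with a peak on the promoter and dashed black lines the 5 without. Tbx18, at a ratio of 0.755, is the dashed line among promoters that mostly carry a peak.

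Short motifs were searched on both strands as a description of these letters only. GGGCGG was present in 4 of the 8 promoters, those of Foxc1, Notch3, Anpep and Abcc9, against 46.2% of 21263 promoters. The strict CArG box, with 6 A or T bases in the middle, was found in none of the 8 and in 1.52% of all promoters. The form with 1 G or C allowed, added after the data were seen, lay at positions -84 to -75 and -34 to -25 of the Acta2 promoter, counted from the transcript start as 0. It was also present at Tbx18 and in 9.58% of all promoters. TGGGAA, the core letters bound by the Notch effector RBPJ, was present in 5 of 8 promoters, against 24.5%, and GGAATG, a TEAD motif, in 3 of 8, against 13.6%. The E-box CANNTG was present in 6 of 8, against 69.0%, and TATAAA at Vtn, against 12.6%. The forkhead motif TGTTTAC and the T-box motif GGTGTGA were in none of the 8, against 3.01% and 3.68%. The TGGGAA and GGAATG matches at Abcc9 and at Vtn overlap each other, and the TGGGAA match at Acta2 overlaps the second of its CArG forms.

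Pdgfrb encodes the PDGF-B receptor that pericytes need in order to be recruited and retained. Its span, on chromosome 18 from 61045127 to 61085067, held 9 peaks that together covered 18.4% of it, and no other annotated gene overlapped them. The peak at the lower-coordinate end, from 61045038 to 61045499 and 462 bp wide, had a fold enrichment of 4.11 and a −log10 q of 53.3. Gm52351, a predicted protein-coding gene, ends 413 bases below Pdgfrb and thus under 1 kb from the same peak, so its gene is uncertain. No promoter of this chromosome was in the table, so which end of Pdgfrb is its start was not read from the files.

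The other 8 peaks inside Pdgfrb were weak by fold, between 1.99 and 2.97. The widest of all 54 peaks was one of them, 1755 bp from 61051472 to 61053226, with a fold of 2.91 and a −log10 q of 31.6. Peaks from 61065546 to 61066692 and from 61067830 to 61068910 were also over 1 kb wide, at 1147 and 1081 bp, with folds of 2.60 and 2.97. A peak from 61046489 to 61047272 had a fold of 2.76 and a −log10 q of 21.01. Between 61054197 and 61059209 lay 3 peaks with folds of 1.99, 2.05 and 2.14, and the narrowest of the 54, 210 bp at 61077287 to 61077496, had 2.96. By −log10 q, the peaks with 31.6 and 21.01 and the one from 61067830, with 15.9, were above the list median of 13.1, and the rest of these were below it. Pdgfrb thus carried many peaks of low fold over its length and none with a fold of 5 or more.

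The peak of highest fold in the Pdgfrb window lay outside the gene, from 61090526 to 61091356, with a fold of 4.70 and a −log10 q of 22.2. By −log10 q the peak at the lower-coordinate end of Pdgfrb was higher, at 53.3. The fold and q of the flank peak were a tied pair, found at 444 lines of the list. This flank peak was 5459 bp beyond the higher-coordinate end of Pdgfrb and 14216 bp from Csf1r, the receptor gene on which microglia depend. It was also the single peak in the 20504 bases between both genes. On the other side, 4 peaks with folds of 2.44 to 3.84 lay inside Cdx1 or Gm52351. In all, 14 peaks covered 12.8% of the window, more than at 74.1% of protein-coding genes, while the highest fold was above that of 24.3% of them.

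Notch3 encodes the receptor through which arteriolar smooth muscle cells take up Notch signals. It lies on chromosome 17 from 32120820 to 32166896 on the minus strand and had 13 peaks in its window, 6 of them in the span. The peak over the transcript start, from 32166714 to 32167183, had a fold of 3.08 and a −log10 q of 13.8, with its summit 59 bp upstream of the start. A wider one followed at 32165258 to 32166222, with a fold of 4.07 and a −log10 q of 28.6. Both were weaker than some, though not all, of the peaks further inside the gene. At 32161831 to 32162808, with the summit 4567 bp downstream of the start, the fold was 5.35 and the −log10 q 51.9.

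The strongest peak inside any of the 9 genes lay at 32143115 to 32143783 in Notch3, with a fold of 9.96 and a −log10 q of 102.4. Its fold exceeded that of 96.3% of peaks in the list. The summit was 23407 bp downstream of the Notch3 start, and the peak lay 180 bp past the far end of Gm41568, a noncoding gene nested in Notch3 whose annotated start is at its other end. A weaker neighbour at 32144146 to 32144835 had a fold of 2.80. The last peak of the span, at 32122244 to 32122828 with a fold of 1.99, was the single one inside a member that also overlapped another gene, the noncoding Gm38585.

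Beyond the 3' end of Notch3, a peak at 32113192 to 32114804 overlapped the promoters of Gm30729 and Gm38585 and had a fold of 4.50 and a −log10 q of 118.5. A further 3 peaks in Gm38585 had folds of 2.07 to 3.14. Upstream of the start, peaks at 32178457 to 32178958 and 32179229 to 32180586 had folds of 2.73 and 7.43, and both lay nearer to Ephx3 than to Notch3. The highest fold of the window, 10.1 at 32099410 to 32100942, belonged to a peak that entered the window by 123 bp, with its summit outside it and the pseudogene Pdxk-ps 7987 bp away. Notch3 had 11.3% of its window covered, more than 67.5% of protein-coding genes.

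Rgs5 encodes a GTPase-activating protein for G protein signalling and is a standard marker of pericytes. It was nearly bare of the mark. The window on chromosome 1, around a span from 169655501 to 169695813 on the plus strand, held 2 peaks and was covered to 0.976%, more than 21.0% of protein-coding genes. The first, at 169672250 to 169672718 and 469 bp wide, had a fold of 3.03 and a −log10 q of 8.20, and the second, at 169693796 to 169694110 and 315 bp wide, had 3.39 and 10.8. The nearest peak was 16749 bp from the transcript start. No other annotated gene lay within the window, and Rgs4, a related gene expressed in neurons, lay 45663 bases beyond the end of Rgs5.

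Abcc9 encodes SUR2, the regulatory subunit of the vascular ATP-sensitive potassium channel. Its span, on chromosome 6 from 142587862 to 142702766 on the minus strand, is the longest of the 9 at 114905 bp, and it held no peak. The single peak of the window, at 142571068 to 142571606, had a fold of 5.35 and a −log10 q of 28.7, 16256 bp past the 3' end of Abcc9. That peak overlapped the promoter of Kcnj8, which encodes Kir6.1, the pore-forming subunit of the same channel. This Kcnj8 peak was counted for Abcc9 only through the 20 kb flank. The Abcc9 window held no peak with flanks of 5 or 10 kb, and 6 with 50 kb. With the 20 kb flank, the window was covered to 0.348%, more than 18.9% of protein-coding genes.

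Anpep encodes aminopeptidase N, also known as CD13, a cell surface peptidase used to sort pericytes. It lies on chromosome 7 from 79821803 to 79848210 on the minus strand, with 4 peaks in its window. The peak at the transcript start, at 79847389 to 79848161, had a fold of 3.47 and a −log10 q of 11.4. A peak near the 3' end, at 79822027 to 79822554, had 2.60 and 5.38. Both peaks inside Anpep were low, and the strongest of the window lay on Mesp2, a gene of somite segmentation, with a fold of 4.70 and a −log10 q of 22.2 at 79810585 to 79811601. That fold and q were the same tied pair as at the Pdgfrb flank peak, found at 444 lines of the list. A peak at 79801663 to 79802190 with a fold of 2.89 crossed the edge of the window, had its summit outside it, and was nearer to Mesp1.

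Acta2 encodes smooth muscle alpha-actin, the contractile actin of arteriolar smooth muscle. Its promoter and the 9 kb after it carried no peak. The gene lies on chromosome 19 from 34240336 to 34255585 on the minus strand, and the nearest peak was 9025 bp from the transcript start. Its 2 peaks lay in the body of the gene, at 34245805 to 34246348 with a fold of 3.25 and a −log10 q of 9.76, and at 34242998 to 34243887 with 3.39 and 10.8. The other 4 peaks of the window, with folds of 2.72 to 5.47, lay inside Stambpl1, a deubiquitinase gene with 2 bases between its span and the 3' end of Acta2. The strongest of them, at 34232506 to 34233157 with a fold of 5.47 and a −log10 q of 32.4, overlapped a promoter that RefSeq lists for Stambpl1.

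Vtn encodes vitronectin, an adhesion protein of plasma and extracellular matrix that brain pericytes express strongly. It had the highest fold of any window and no peak of its own. The span, on chromosome 11 from 78499120 to 78502325 on the plus strand, held no peak, and each of the 6 peaks around it overlapped another gene. The peak nearest to Vtn, at 78496833 to 78498154, had a fold of 11.1 and a −log10 q of 252.4, the highest of the 54. It lay on the promoter of Sarm1, 966 bp from the Vtn span, with its summit at -1349 bp from the Vtn start. A peak inside Sarm1, at 78490450 to 78491386, had 9.27 and 145.4.

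On the other side of Vtn, the peak at 78511875 to 78512833 had a fold of 12.5 and a −log10 q of 167.8, and it overlapped the promoters of Tmem199 and Poldip2, which start close together in opposite directions. The remaining 3 peaks, inside Sarm1 and Poldip2, had folds of 2.20 to 2.82. The window was covered to 12.6%, more than 73.0% of protein-coding genes, with no covered base inside Vtn itself. Window values for Vtn are therefore values of peaks on Sarm1, Tmem199 and Poldip2.

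Tbx18 and Foxc1 encode transcription factors of mural cell lineages, and they lay at opposite ends of the range. Tbx18, a T-box factor whose Cre lines label pericytes and smooth muscle, lies on chromosome 9 from 87702800 to 87731260 on the minus strand. No peak lay in its window, as at 18.5% of protein-coding genes. The nearest peak, at 87426781 to 87427251 with a fold of 2.67, was 275549 bp from the span, and 7.2% of protein-coding genes had their nearest peak further away. The closest protein-coding genes, Cep162 and Nt5e, were 447263 and 596348 bases away.

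Foxc1, a forkhead factor needed for vascular and meningeal development, had 8 peaks in its window and the highest covered share of the 9, at 14.2%, more than 79.3% of protein-coding genes. It lies on chromosome 13 from 31806646 to 31810635 on the plus strand, and 39.8% of its span was covered. The peak on the promoter, at 31806225 to 31806685, had a fold of 4.58 and a −log10 q of 26.1. A peak of 1548 bp over the gene body, at 31807018 to 31808565, had a fold of 3.55 and a −log10 q of 12.95. The strongest peak lay upstream, at 31801102 to 31802110 with a fold of 5.56 and a −log10 q of 37.96, its summit at -5258 bp from the start.

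Another upstream peak of Foxc1, at 31798056 to 31798941, had a fold of 4.11 and a −log10 q of 19.02, with the summit at -8255 bp. No annotated gene lay between these peaks and Foxc1. Just past the 3' end, a peak at 31811479 to 31812111 had a fold of 2.83. A further 3 peaks, with folds of 2.74 to 4.05, overlapped Gmds or lay nearer to it than to Foxc1. Of the 9 genes, Foxc1 and Pdgfrb were those whose window peak of highest fold lay in a flank and had the gene itself as its nearest annotated gene. At Pdgfrb this held by fold but not by −log10 q.

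Of the 54 peaks, 23 overlapped a member span and 31 lay in a flank. Of the flank peaks, 27 were closer to another annotated gene and 4 were not, 3 of these at Foxc1 and 1 at Pdgfrb. Of the peaks in a span, 1 overlapped another gene as well. A promoter of another gene was overlapped by 6 of the 54 peaks, and 7 lay within 1 kb of an end of another gene. The member was the nearest annotated gene at 26 peaks and the nearest protein-coding gene at 32, so the sharing depends on whether noncoding genes and pseudogenes are counted. No such shares are given here for peaks near all protein-coding genes, so these counts describe the 54 peaks only.

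**Figure D3:**
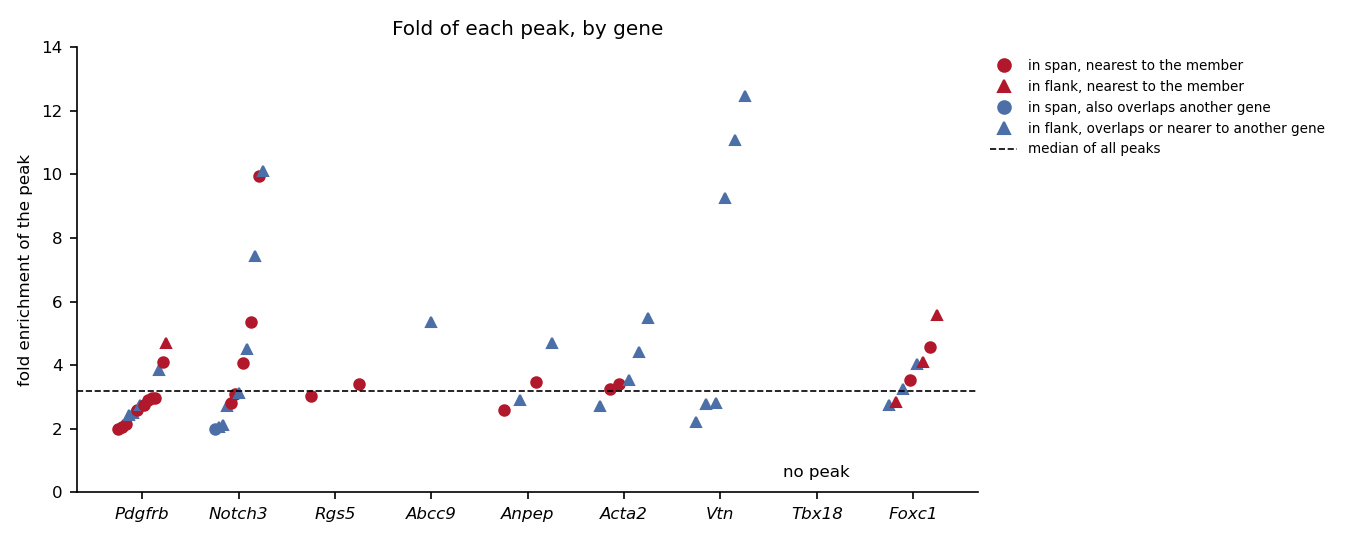
Fold enrichment of each of the 54 peaks (y axis) by gene (x axis), with circles for peaks in the span, triangles for peaks in the flanks, red where the member is the nearest annotated gene and blue where another gene is overlapped or nearer. The dashed line is the median fold of all peaks in the list, 3.18. The peaks above a fold of 9 are 3 at Vtn and 1 at Notch3 in blue, and 1 inside Notch3 in red.

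A fold of 5 or more, a cut chosen after the values were seen, was reached by 10 peaks, of which 8 lay in a flank and 2 in a span, both inside Notch3. Another annotated gene was closer than the member at 7 of the 10, and the other 3 were those in Notch3 and the upstream peak of Foxc1. Among the 7, the peak at the edge of the Notch3 window was closer to the pseudogene Pdxk-ps, but to no other protein-coding gene. Of the 10, 4 lay on a promoter of another gene, namely Kcnj8, Stambpl1, Sarm1, and the pair Tmem199 and Poldip2. No such shares are given here for peaks in the windows of all protein-coding genes. By gene, 5 of 9 windows held such a peak, against 74.4% of protein-coding genes.

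Taken peak by peak, the 54 were close to the list at large. Their median fold was 3.19, with a range of 1.99 to 12.5, against 3.18 for all peaks. They had a median width of 664.5 bp and spanned 210 to 1755 bp, against a median of 557 bp. Their median −log10 q was 13.4, with a range of 4.92 to 252.4, against 13.1. Span peaks had a median fold of 3.03 and flank peaks 3.53. These medians describe a small set, in which 27 peaks came from Pdgfrb and Notch3.

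Taken gene by gene, the highest folds were low. Among the 8 members with a peak in the window, the median of the highest fold was 5.41, against 10.2 for protein-coding genes with a peak there. Within the span, 6 members had a median highest fold of 3.79, against 8.81. At the ends, 5 members had a median of 4.11, against 8.60. The end peaks of Vtn and Pdgfrb also lay at an end of another gene, and without such peaks 3 members had an end peak. Vtn alone lay above the protein-coding median in the window, through peaks on other genes. The share of the window covered by peaks had a median of 6.10% over the 9 genes, against 7.20%, with 4 genes above that value, namely Pdgfrb, Notch3, Vtn and Foxc1. Neither difference was tested.

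**Figure D4:**
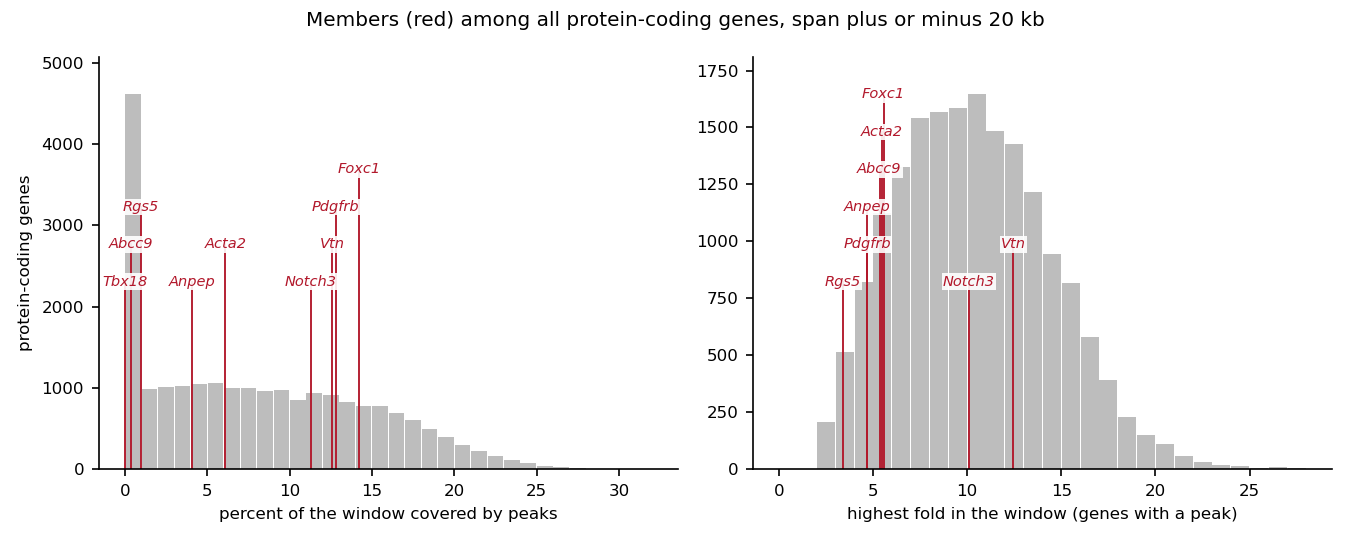
Number of protein-coding genes (y axis) by percent of the 20 kb window covered by peaks (x axis, left) and by highest fold in the window for genes with a peak (x axis, right), with the members as red lines. Coverage of the members runs from 0 at Tbx18 to 14.2% at Foxc1, and 6 of the 8 highest folds lie between 3.39 and 5.56, below the protein-coding median of 10.2.

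Other genes of mural cells were read from lists in the same way. Of 12 further pericyte genes, all had a peak in the window and 8 had one at an end (66.7%), against 81.5% and 69.2% of protein-coding genes. The median of their highest fold was 5.16, below the 10.2 of protein-coding genes with a peak there. The highest folds were 17.7 at Art3, 9.43 at Atp13a5, a P-type ATPase gene, and 7.47 at Gja4, a gap junction gene. Inside the span the highest fold was 8.74 at Art3 and 5.78 at Atp13a5, so their strongest peaks lay in the flanks. Of 12 smooth muscle contractile genes, all had a peak in the window and at an end, against the same 81.5% and 69.2%. Their median highest fold was 7.90, also below 10.2. Actg2, Lmod1 and Mylk led with 15.04, 14.5 and 13.9, but inside their spans the highest folds were 3.83, 4.88 and 7.07, so those peaks lay in the flanks. The ATP-sensitive potassium channel genes Kcnj11 and Abcc8, the neuronal and endocrine counterparts of Kcnj8 and Abcc9, had 5.11 and 6.29.

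The ligands, receptors and targets of the PDGF and Notch pathways carried peaks at each gene of the list. All 12 genes of that list had a peak in the window and 10 had one at an end (83.3%), with a median highest fold of 7.66. These stood against 81.5%, 69.2% and a median of 10.2 for protein-coding genes. Hey1, a transcription factor target of Notch, had 13.8 in its flank and 7.24 inside its span. Hey2, another such target, had 9.53 at its own end. The receptor gene Notch2 had 11.7 at its own end. The list of 12 mural and meningeal transcription factors was marked at an end in 5 cases (41.7%), and Tbx15 and Twist1 had no peak in the window, as Tbx18. Foxc2 and Foxf1 shared a single peak with a fold of 12.6, which overlapped neither gene, and Foxd1 had 7.94.

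Markers of the cell types next to mural cells are given beside the protein-coding shares of 81.5% for a window peak and 69.2% for an end peak, and the median highest fold of 10.2, which lay above the median of each of these lists. Of 10 endothelial genes, all had a window peak and 6 an end peak (60.0%), with a median highest fold of 6.61. Of 10 fibroblast genes of the vessel wall and meninges, 6 had a window peak and 4 an end peak, with a median highest fold of 7.44. The matrix genes Col3a1, Dcn and Lum had no peak in the window. Col1a1, also a matrix gene, had the highest fold of that list, 9.61 in its flank and 4.17 inside its span. Of 10 microglial genes, 9 had an end peak, as did 9 of 10 astrocyte genes and all 10 neuronal genes, with median highest folds of 6.09, 7.89 and 9.74. The mural genes had an end peak in 5 of 9 cases (55.6%) and a median highest fold of 5.41. The lists were not compared by a test, several genes have roles in more than 1 cell type, and Pdgfra and Kcnj8 are each in 2 lists.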

How the data were processed

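Bulk CUT&Tag for H3K27ac was made from hypothalamic nuclei in 3 samples, per the labels' protocols. Samples were grouped by their titles. Per the submitters' processing notes, the tools include MACS2, with no version, and BWA 0.7.17, and the build is mm10, with no role or order. Neither the settings of the peak caller nor the rule that combined replicates is given in the sources used here.

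The list deposited by the authors has no header and follows the narrowPeak column order. Its fold ratio, −log10 q and summit position, as deposited, were used only to describe and rank peaks within the list. The score and the −log10 p deposited by the authors were not used. Fold and q were shared exactly with another peak at 29 of the 54 peaks, and in 59.4% of lines of the list, so many fine ranks are ties. Ties were not limited to the weakest peaks. The pair of the Kcnj8 peak in the Abcc9 window, with a fold of 5.35, was found at 259 lines. All peaks of the Rgs5, Abcc9 and Anpep windows and both peaks inside Acta2 had such repeated pairs, found at 259 to 2293 lines each. Read depth is not known, and absence means only that this list holds no peak there.

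Peaks were overlapped with gene spans of the RefSeq table of GRCm38.p6, the assembly that mm10 denotes, using Python 3.11.15 and pandas 2.3.3, with 1-based coordinates. A span peak overlapped the gene, an end peak lay within 1 kb of an end, and a peak was called nearer to another gene when that span was closer. Starts and strands came from the RefSeq promoter table. The overlap and motif code was tested on simulated data. No test was run, since 1 list for all replicates leaves no spread. The members and lists were chosen with earlier results of these data known. The rule for named genes took the 9 members, neighbours whose span or end a peak overlaps, and from each list up to 3 genes of highest fold and 3 without a peak. Neighbours that no peak touches, such as Csf1r, Rgs4 and Ephx3, were chosen after their values were seen. Alternatives changed the flanks, the end windows, the overlap rule, the peak thresholds and the assignment to neighbours.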

Additional observations from a re-analysis of the deposited data

How the results depend on the processing

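The 54 peaks became 23 with no flank, 30 with 5 kb, 40 with 10 kb and 123 with 50 kb flanks, 27 with only peaks above the median −log10 q, and 15 with peaks in the upper quartile of fold. Counting a peak only where the member was its nearest annotated gene left 26, and its nearest protein-coding gene 32. The number of genes with a window peak, 8, ranged from 6 to 8 over these settings. The median of the highest fold, 5.41, was 3.79 with no flank, 4.11, 5.47 and 5.45 with 5, 10 and 50 kb, and 4.08 with nearest genes only. The 5 genes with an end peak became 4 with end windows of 500 bp and 6 with 2500 bp. They became 2 with upper quartile peaks alone, and 3 without peaks at an end of another gene. The median covered share, 6.10%, was 4.93% with no flank, 8.70% and 7.76% with 10 and 50 kb, and 2.30% with only peaks above the median −log10 q. Among peak counts and highest folds of single genes under these settings, 66 were lower than the reported value, 14 were higher and 35 were equal to it. The direction was set by the settings. For these values of single genes, only the 50 kb flank could raise a value, and the others, which keep part of the 54 peaks, could only lower it or leave it equal. This does not hold for the medians over genes, the covered shares or the wider end windows, some of which rose. No paired analysis was possible because the list holds no value per replicate, and for the same reason no replicate could be left out in turn. Unknown depth limits what the absence of a peak at Tbx18, Abcc9, Vtn or the Acta2 promoter can show.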
